A study of Homo sapiens with 6 samples.

Results

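The genes of the TGF-beta and BMP pathway were compared between RKO cells with a lentiviral hairpin against TRIM21 and RKO cells with a scrambled hairpin. The 35 genes were chosen by symbol as ligands, ligand-binding proteins, receptors, SMAD proteins, co-repressors and target genes, with earlier results of these data known. All 35 have a row among the 28278 rows of the count tables. RKO is an established human cell line derived from a poorly differentiated carcinoma of the colon. Each group holds 3 total-RNA libraries made after depletion of ribosomal RNA. The first group, shTRIM21, stably expresses a short hairpin RNA aimed at TRIM21, which encodes a cytosolic E3 ubiquitin ligase, and the second, shControl, a scrambled hairpin in otherwise wild-type cells. All cells went through lentiviral infection and, from 36 h later, puromycin at 5 µg/ml for weeks. The labels call the libraries biological replicates without naming separate infections, so p-values measure the spread between these libraries. They do not say how many hairpins were used, and they name no clone. The source is given as mouse tissue in 1 label field, against the human line, organism and symbols given elsewhere.

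In this pathway, dimeric ligands of the TGF-beta and BMP families bind paired type I and type II receptor kinases, which phosphorylate receptor SMADs. The TGF-beta and activin branch signals mainly through SMAD2 and SMAD3, the BMP branch through SMAD1, SMAD5 and SMAD9, and both join SMAD4 to enter the nucleus. The inhibitory SMAD6 and SMAD7 and the ID genes are induced by the pathway and are widely used as its readouts. In the colon BMP signals accompany differentiation, and colon carcinomas with defective mismatch repair, RKO among them, are known to carry inactivating frameshifts in TGFBR2.

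The libraries held 33499827 to 44466137 counts, of which 27808151 to 29100459 lay outside the rows of ribosomal RNA. Ribosomal RNA took 17.0% to 23.5% of the counts in shTRIM21 and 14.7% to 36.9% in shControl, with the highest shares in shControl replicates 1 and 3. TRIM21 stood at 7.97, 6.92 and 7.85 CPM (counts scaled to a common library size) in shTRIM21 and at 12.2, 11.5 and 9.47 in shControl. It was 31.3% lower with no overlap (log2 fold change -0.54 with SE 0.12, edgeR adjusted p = 0.00424). This call was lost with library sizes alone (-0.34, edgeR adjusted p = 0.197), sizes that include the ribosomal RNA counts. With the main scaling and without the ribosomal RNA rows the call was kept (-0.55, edgeR adjusted p = 0.00311). Over all 15131 tested genes, 20.8% were called at an adjusted p under 0.05 in edgeR's quasi-likelihood test, 9.77% higher and 11% lower in shTRIM21. Higher genes made up 47.0% of the calls here, 62.1% with upper-quartile scaling and 93.0% with library sizes alone, where the median of all tested genes lay at 0.22 on the log2 scale. Epithelial markers (EPCAM, CDH1 and the keratins KRT8, KRT18 and KRT19) were present for 5 of 5 genes, with summed levels of 4604 to 4847 CPM in shTRIM21 and 5936 to 6602 CPM in shControl. The keratin genes KRT8, KRT18 and KRT19, which make up most of that sum, fell (-0.44, -0.46 and -0.38), CDH1 rose (0.57, edgeR adjusted p = 3.31e-05), and EPCAM was not called (0.13). Of the colon markers CDX2 and VIL1 were present, LGR5 stayed at or under 0.110 CPM and CDX1 is listed at 0. Of 6 fibroblast markers 0 exceeded 1 CPM on average, with a summed level of 0.408 to 0.502 CPM in shTRIM21 and 0.109 to 0.450 CPM in shControl, and DCN, LUM and THY1 are listed at 0. Endothelial markers summed to at most 0.720 CPM, and among immune markers PTPRC had 1 count in each of 2 libraries and CD3E is listed at 0, while CD68, which other cells also express, stood at 6.08 and 7.52 CPM on average in shTRIM21 and shControl.

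Of the 35 genes 29 passed the filter on low counts, each of them above the filter level in every library of both groups. Of these 29, 8 rose and 1 fell in shTRIM21. The shares called were 27.6% higher and 3.45% lower, beside 9.77% and 11% of all tested genes. The list was chosen with earlier results of these data known, so these shares are set side by side without a test. The median log2 fold change was 0.07 over the 29 genes and 0.0054 over all tested genes. The groups did not overlap for 11 of the 29, 8 higher and 3 lower in shTRIM21. Over all tested genes 37.7% did not overlap, 18.7% higher and 19% lower. The genes that rose were the ligands BMP4 and TGFB1, the latent TGF-beta binding protein gene LTBP1, SMAD7 and SMAD9, and the targets ID1, ID2 and ATOH8. The gene that fell was LTBP2. In bulk RNA, fewer cells that express a gene and less of its RNA per cell cannot be told apart. The 8 higher calls became 5 without shTRIM21 replicate 3. Leaving out shControl replicates 1 and 3 keeps 1 control library, so that setting is read mainly for sizes of change. Receptors and the widely expressed SMADs and co-repressors were not called, as the plot of changes by role shows.

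**Figure D1:**
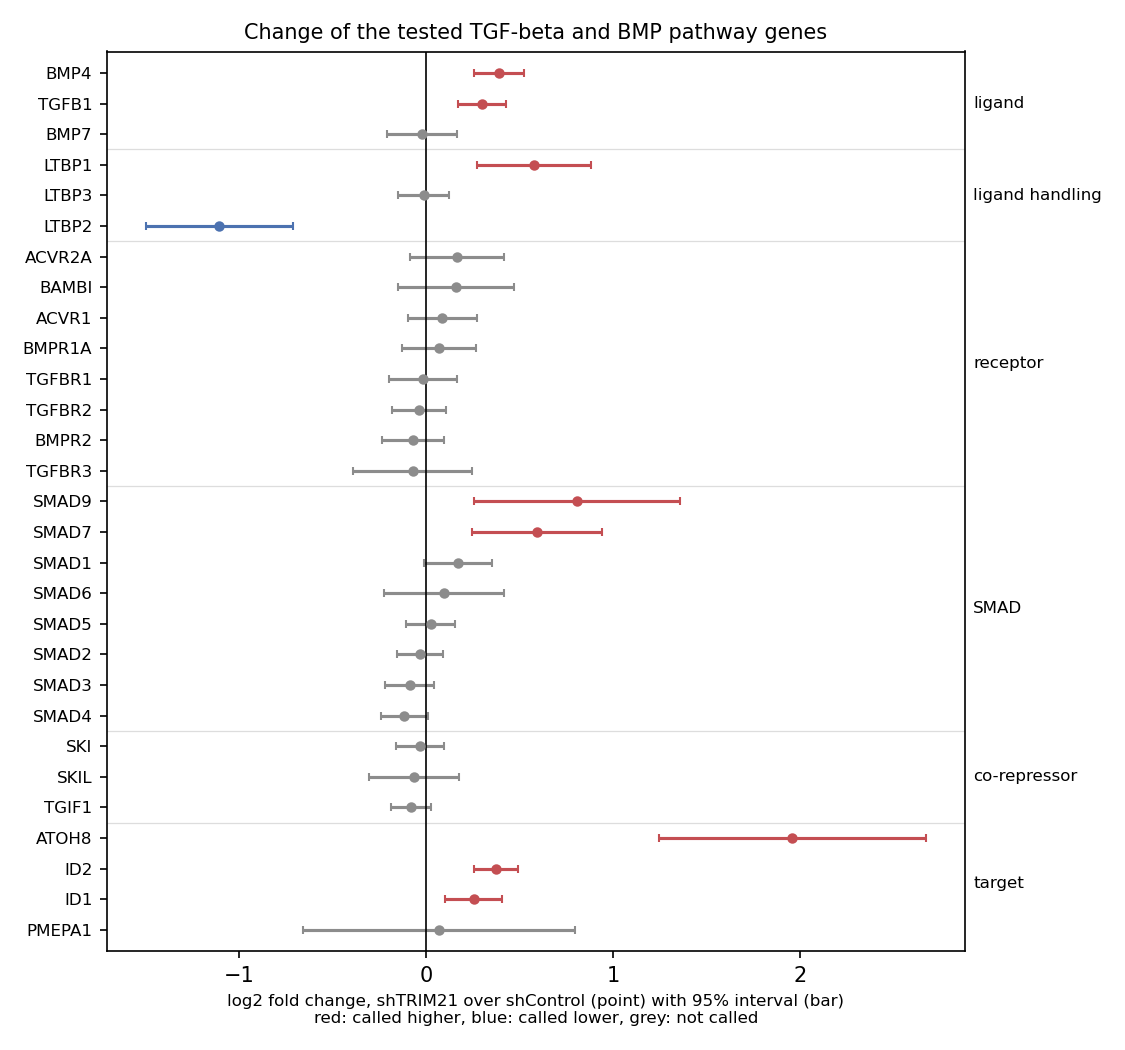
Log2 fold change of shTRIM21 over shControl (x axis) for the 29 tested genes (y axis), grouped by role; points are edgeR estimates and bars their 95% intervals. The called genes lie among ligands, ligand-binding proteins, SMADs and targets, from -1.11 for LTBP2 to 1.96 for ATOH8, while the 8 receptor genes lie between -0.07 and 0.16.

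The remaining 6 genes were too low to test. ID3 and BMP2 are listed at 0 in all 6 libraries. INHBA, a subunit gene of activin, had 2 counts in 1 shTRIM21 library, and the BMP antagonist gene GREM1 had 2 counts in 1 shControl library. TGFBI, a TGF-beta-induced matrix gene, had 0 to 4 counts per library, and ID4 2 to 9. FBL, RPL7A and CANX, which nearly every human cell uses, are also listed at 0 in these tables, so a listing at 0 is given only as such.

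The promoter sequences of the 3 targets that rose and of the ligand BMP4 are shown to place the letters around their start sites beside the changes. They cover 250 bases before to 50 bases after the start site in RefSeq (GRCh38.p14), 5′ to 3′ on the gene's strand. Capitals mark any match to the BMP response element core GGCGCC, the SMAD-binding palindrome GTCTAGAC, the SMAD-type word CAGACA, the E-box CACGTG or the AP-1 site TGACTCA, searched on both strands.
ID1, chr20:31605039-31605338, plus strand: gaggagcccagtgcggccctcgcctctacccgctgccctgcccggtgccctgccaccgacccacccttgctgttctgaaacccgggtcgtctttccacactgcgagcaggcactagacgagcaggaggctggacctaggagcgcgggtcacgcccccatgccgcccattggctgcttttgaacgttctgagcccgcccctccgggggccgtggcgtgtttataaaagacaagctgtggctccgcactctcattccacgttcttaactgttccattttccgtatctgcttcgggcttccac
ID2, chr2:8681806-8682105, plus strand: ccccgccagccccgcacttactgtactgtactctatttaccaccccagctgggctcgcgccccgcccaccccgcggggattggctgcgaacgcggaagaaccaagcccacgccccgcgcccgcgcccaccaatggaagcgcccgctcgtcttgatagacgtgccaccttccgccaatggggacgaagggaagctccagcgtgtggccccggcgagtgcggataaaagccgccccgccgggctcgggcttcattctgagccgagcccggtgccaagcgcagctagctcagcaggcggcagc
ATOH8, chr2:85753741-85754040, plus strand: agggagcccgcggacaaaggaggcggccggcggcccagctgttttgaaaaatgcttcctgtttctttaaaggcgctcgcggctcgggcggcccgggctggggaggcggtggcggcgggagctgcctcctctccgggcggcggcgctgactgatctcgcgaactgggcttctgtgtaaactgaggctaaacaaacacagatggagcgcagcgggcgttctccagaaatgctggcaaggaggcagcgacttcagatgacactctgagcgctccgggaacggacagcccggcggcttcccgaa
BMP4, the farthest upstream of 3 start sites in the table, chr14:53955001-53955300, minus strand: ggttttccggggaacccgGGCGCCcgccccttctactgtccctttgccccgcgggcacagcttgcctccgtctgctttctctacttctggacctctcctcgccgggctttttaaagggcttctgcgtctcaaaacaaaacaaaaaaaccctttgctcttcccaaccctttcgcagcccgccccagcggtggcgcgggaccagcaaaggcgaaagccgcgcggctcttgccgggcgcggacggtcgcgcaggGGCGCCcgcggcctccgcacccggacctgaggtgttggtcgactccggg
The BMP4 window shown holds GGCGCC at 2 places. Of the other BMP4 windows in the table, that at chr14:53953346-53953645 holds CAGACA and CACGTG and no GGCGCC, and that at chr14:53954439-53954738 holds none of the 5 words. The windows of ID1, ID2 and ATOH8 hold none of the 5 words, which says only that these letters are not in these windows. GGCGCC occurs in 19.2% of the 35116 promoter windows of the table, CAGACA in 16.9%, CACGTG in 7.26%, TGACTCA in 4.95% and GTCTAGAC in 0.202%. Of the 35 genes 32 had at least 1 window, 68 windows in all. Among these GTCTAGAC occurred in 1, that of SMAD6, which was not called. GGCGCC occurred in 17, and of the called genes only BMP4 and LTBP2 had such a window. The GC content of the members' windows had a median of 65.2%, against 58.7% over all windows in the table.

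Among ligands, BMP4 and TGFB1 rose and BMP7 did not pass the test. BMP4 encodes a ligand of the BMP branch and lies on chromosome 14 at 53949736 to 53956891. It stood at 160.0, 157 and 158 CPM in the shTRIM21 libraries and at 131, 109 and 124 CPM in the shControl libraries. All 3 shTRIM21 libraries lay above all 3 shControl libraries, and they were closer to each other than the controls were. The means were 158 ± 1.36 and 121 ± 11.2 CPM (SD, n = 3 each), 1.31-fold higher (log2 fold change 0.39 with SE 0.063, edgeR adjusted p = 0.000568). TGFB1, the main TGF-beta isoform gene, on chromosome 19 at 41330323 to 41353922, stood at 68.4, 67.9 and 74.0 CPM against 59.3, 54.7 and 57.0 CPM. Its groups did not overlap, at means of 70.1 ± 3.38 and 57.0 ± 2.29 CPM (SD, n = 3 each). TGFB1 was 1.23-fold higher (log2 fold change 0.30 with SE 0.060, edgeR adjusted p = 0.00272). BMP7, a further BMP-branch ligand, stood at 13.6, 12.7 and 14.0 CPM against 13.9, 13.7 and 13.2 CPM, with overlapping groups (log2 fold change -0.02, 95% interval -0.21 to 0.16, edgeR adjusted p = 0.89). The ratio of BMP4 to BMP7 counts within a library does not depend on scaling. It was 11.8, 12.4 and 11.3 in shTRIM21 and 9.38, 7.93 and 9.34 in shControl, again without overlap.

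Of the genes for latent TGF-beta binding proteins, a family that in part holds TGF-beta in the extracellular matrix, LTBP1 rose, LTBP2 fell and LTBP3 was not called. LTBP1, on chromosome 2 at 32946953 to 33399509, stood at 6.02, 7.22 and 7.66 CPM in shTRIM21 and at 3.97, 4.98 and 5.05 CPM in shControl. Every shTRIM21 library lay above every shControl library, and LTBP1 was 1.49-fold higher (log2 fold change 0.58 with SE 0.14, edgeR adjusted p = 0.0101). LTBP2, on chromosome 14 at 74498183 to 74612237, is the family member known not to bind latent TGF-beta. It stood at 1.71, 2.12 and 1.90 CPM against 3.52, 4.65 and 4.17 CPM. Its groups did not overlap either, in the other direction, and LTBP2 was 2.15-fold lower (log2 fold change -1.11 with SE 0.18, edgeR adjusted p = 0.000722). The within-library ratio of LTBP1 to LTBP2 counts was 3.53, 3.41 and 4.03 in shTRIM21 and 1.13, 1.07 and 1.21 in shControl, so LTBP1 and LTBP2 had nearly equal counts in the controls and well separated ones in shTRIM21. Among LTBP1, LTBP2 and LTBP3, LTBP3 was by far the most abundant per length. It stood at 22.5 and 22.7 CPM per kilobase of exon in shTRIM21 and shControl and was not called. It ranged from 133 to 144 CPM in shTRIM21 and from 128 to 152 CPM in shControl (log2 fold change -0.01, 95% interval -0.15 to 0.12). Without shControl replicates 1 and 3, with 1 control library left, the LTBP1 change was 0.48.

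**Figure D2:**
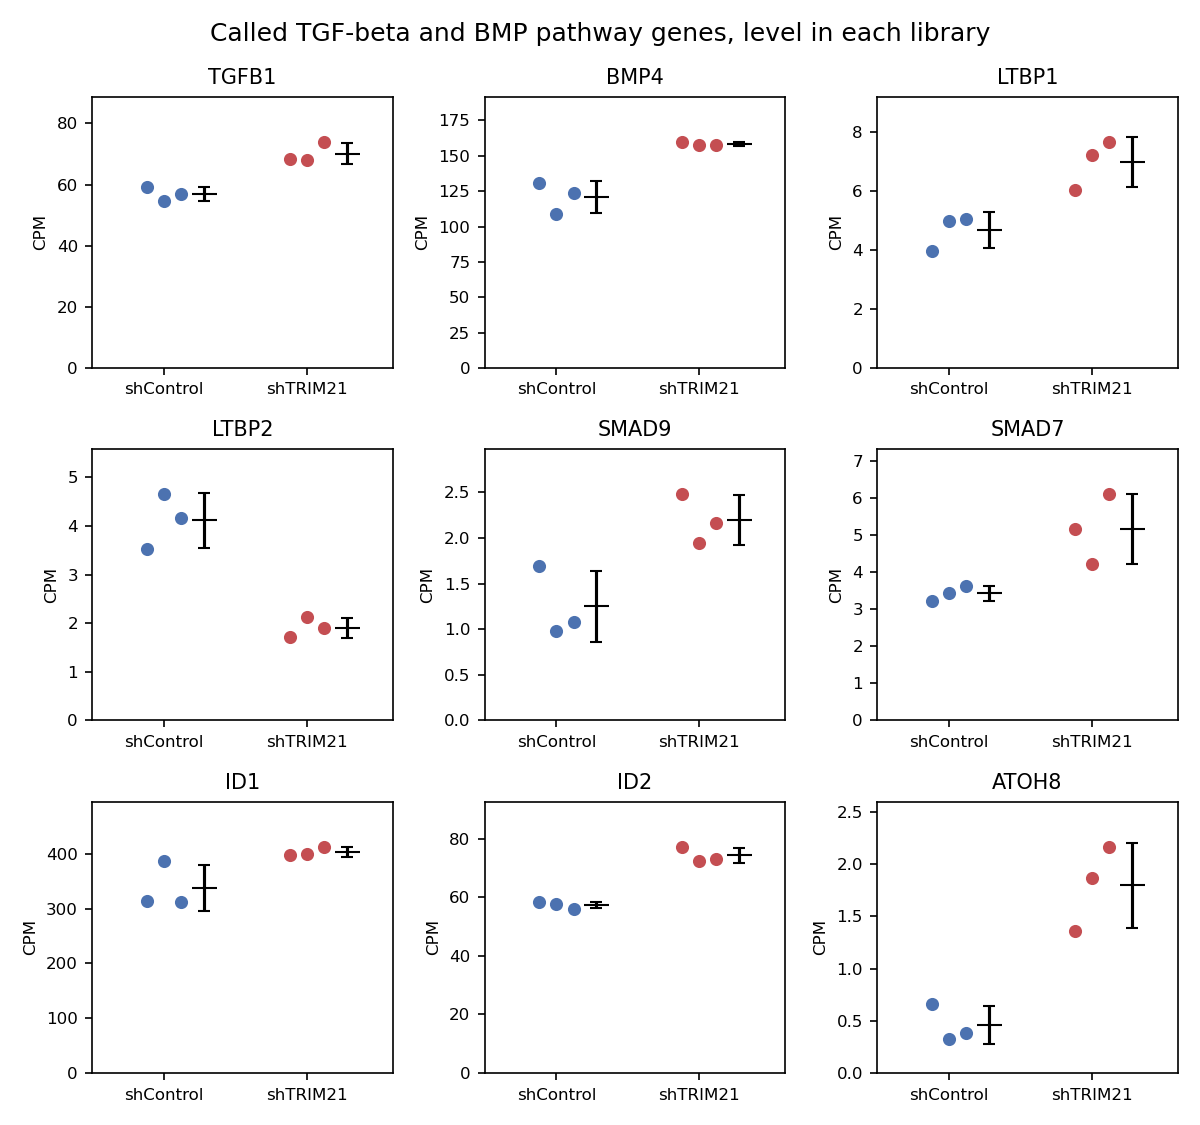
CPM (y axes, each from 0) of the 9 called pathway genes in the 3 shControl (blue) and 3 shTRIM21 (red) libraries; points are libraries, in the order of replicates 1 to 3, and the black marks give mean and SD. In all 9 panels the groups do not overlap, and in the ID1 panel shControl replicate 2, at 387 CPM, lies close to the shTRIM21 libraries.

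Of the 8 receptor genes 0 were called by edgeR, and 0 had an unadjusted p under 0.05 there, in DESeq2 or in limma-voom. Over all 15131 tested genes 20.8% were called by edgeR, and 5158 had an unadjusted p under 0.05. The genes of the TGF-beta receptors, TGFBR1 (type I) and TGFBR2 (type II), gave log2 fold changes of -0.02 (95% interval -0.20 to 0.16) and -0.04 (95% interval -0.18 to 0.11). TGFBR2 ranged from 34.6 to 39.7 CPM in shTRIM21 and from 36.6 to 39.0 CPM in shControl, and TGFBR1 from 27.6 to 33.9 CPM and from 29.6 to 34.5 CPM. TGFBR3, which encodes the co-receptor betaglycan, was at 5.84 ± 0.555 and 6.12 ± 1.16 CPM (SD, n = 3 each). The BMP type I receptor gene BMPR1A was at 27.6 ± 2.38 and 26.3 ± 3.28 CPM and the type II receptor gene BMPR2 at 23.8 ± 1.62 and 25.0 ± 1.35 CPM (SD, n = 3 each). ACVR1, a type I receptor gene that serves BMP ligands, was at 15.7 ± 0.693 and 14.7 ± 0.913 CPM, and the activin type II receptor gene ACVR2A at 7.89 ± 0.235 and 7.04 ± 0.839 CPM (SD, n = 3 each). BAMBI encodes a pseudoreceptor without a kinase that dampens signalling and stood at 5.68 ± 0.586 and 5.09 ± 0.702 CPM (SD, n = 3 each). The groups overlapped for all 8, where 37.7% of all tested genes did not overlap. The intervals of the 8 reach from -0.39 (TGFBR3) to 0.47 (BAMBI) on the log2 scale, so small changes in either direction are not shown to be absent. For BAMBI and ACVR2A this includes rises as large as that called for BMP4 (0.39).

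Of the SMAD genes, 2 of 8 rose and 0 fell by edgeR, and DESeq2 and limma-voom gave the same counts. This share of 25% called lies near the 20.8% of all tested genes called in either direction. By direction the shares were 25% higher and 0% lower, beside 9.77% and 11% of all tested genes. SMAD7, which encodes an inhibitory SMAD that both branches induce, lies on chromosome 18 at 48919853 to 48950965. It stood at 5.17, 4.21 and 6.10 CPM in shTRIM21 and at 3.23, 3.43 and 3.62 CPM in shControl. No shTRIM21 library fell within the control range, and the shTRIM21 libraries were spread more widely. SMAD7 was 1.51-fold higher (log2 fold change 0.59 with SE 0.16, edgeR adjusted p = 0.0187). The call was lost without shTRIM21 replicate 3 (0.45, edgeR adjusted p = 0.0926) and without shControl replicate 1 (0.55, adjusted p = 0.0612). Without shControl replicates 1 and 3, with 1 control library left, the SMAD7 change was 0.58. SMAD6, the other inhibitory SMAD gene, with a stronger tie to the BMP branch, overlapped between groups at 4.65 ± 0.359 and 4.36 ± 0.594 CPM (SD, n = 3 each; log2 fold change 0.09, 95% interval -0.23 to 0.42). The within-library ratio of SMAD7 to SMAD6 counts was 1.22, 0.873 and 1.25 in shTRIM21 and 0.841, 0.685 and 0.856 in shControl.

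SMAD9, on chromosome 13 at 36844831 to 36920854, encodes a receptor SMAD of the BMP branch that is itself a BMP target. It was the least abundant SMAD gene per length, at 0.393 and 0.224 CPM per kilobase in shTRIM21 and shControl. Its counts were 93, 76 and 82 in shTRIM21 and 64, 36 and 39 in shControl, or 2.48, 1.94 and 2.17 CPM against 1.70, 0.979 and 1.08 CPM. The groups did not overlap, with shControl replicate 1 closest to the shTRIM21 libraries. SMAD9 was 1.75-fold higher (log2 fold change 0.81 with SE 0.26, edgeR adjusted p = 0.0377). This adjusted p was the highest of the 9 calls, and the call was lost without shTRIM21 replicate 1, 2 or 3 (0.71, 0.88 and 0.82, adjusted p = 0.121, 0.0691 and 0.0808) and without shControl replicate 2 or 3 (0.66 and 0.70, adjusted p = 0.119 and 0.116).

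The other SMAD genes were not called. SMAD1 and SMAD5, the other receptor SMAD genes of the BMP branch, were at 21.3 ± 1.88 and 18.9 ± 0.870 CPM and at 63.3 ± 4.50 and 62.2 ± 0.262 CPM in shTRIM21 and shControl (SD, n = 3 each). For SMAD1 the log2 fold change was 0.17 (95% interval -0.01 to 0.35, edgeR adjusted p = 0.178). SMAD2 and SMAD3, of the TGF-beta branch, gave -0.03 (95% interval -0.15 to 0.09) and -0.09 (95% interval -0.22 to 0.04). SMAD4, the shared partner, stood at 50.1, 52.7 and 48.8 CPM in shTRIM21 and 55.1, 56.2 and 53.0 CPM in shControl. Its groups did not overlap, with every shTRIM21 library lower, but the difference did not pass the test (log2 fold change -0.12, 95% interval -0.24 to 0.01, edgeR adjusted p = 0.182).

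The co-repressors bind SMAD complexes and limit their activity. SKI, SKIL and TGIF1 gave 0 calls of 3 by edgeR, with 0 at an unadjusted p under 0.05 there, in DESeq2 or in limma-voom. Over all tested genes 20.8% were called by edgeR. SKI was at 90.8 ± 3.12 and 92.7 ± 6.27 CPM, and SKIL, which is also induced by TGF-beta, at 10.5 ± 1.10 and 11.01 ± 1.27 CPM (SD, n = 3 each). TGIF1 stood at 138, 135 and 138 CPM in shTRIM21 and 151, 142 and 141 CPM in shControl. Every shTRIM21 library of TGIF1 was lower, by a small margin (log2 fold change -0.08, 95% interval -0.19 to 0.03, edgeR adjusted p = 0.293).

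Of the 4 target genes that could be tested, ID1, ID2 and ATOH8 rose and PMEPA1 was not called. ID proteins are helix-loop-helix factors without a DNA-binding region that hold back differentiation factors. ID2, on chromosome 2 at 8682056 to 8684461, stood at 77.3, 72.6 and 73.1 CPM in shTRIM21 and at 58.3, 57.7 and 56.0 CPM in shControl. Both groups were tight and well apart, and ID2 was 1.295-fold higher (log2 fold change 0.37 with SE 0.056, edgeR adjusted p = 0.000289), the smallest p-value of the 35 genes. ID2 was called under all 17 alternatives, with adjusted p-values up to 0.0164.

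ID1, on chromosome 20 at 31605289 to 31606510, was the most abundant of the pathway genes per length, at 327 and 274 CPM per kilobase in shTRIM21 and shControl. It stood at 397, 399 and 413 CPM in shTRIM21 and at 315, 387 and 312 CPM in shControl. The groups did not overlap, but shControl replicate 2 came close to the lowest shTRIM21 library. ID1 was 1.19-fold higher (log2 fold change 0.25 with SE 0.072, edgeR adjusted p = 0.0209). The controls differed with their ribosomal RNA share: ID1 was 387 CPM in shControl replicate 2, where that share was 14.7%, and 315 and 312 CPM in shControl replicates 1 and 3, where it was 31.0% and 36.9%. The part of this share in the result was not tested. Without shControl replicates 1 and 3, with 1 control library left, the ID1 change was 0.05. The call was lost without shControl replicate 1 or 3 (0.20 and 0.19, edgeR adjusted p = 0.098 and 0.117), without shTRIM21 replicate 2 or 3 (0.25 and 0.24, adjusted p = 0.0788 and 0.0585) and with library sizes alone (0.45, adjusted p = 0.0566).

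ATOH8, a basic helix-loop-helix factor gene known as a target of BMP signals, showed the largest change of the 29 genes. It lies on chromosome 2 at 85753991 to 85791383. Its counts were 51, 73 and 82 in shTRIM21 and 25, 12 and 14 in shControl, or 1.36, 1.86 and 2.17 CPM against 0.662, 0.326 and 0.386 CPM. The lowest shTRIM21 library was above the highest control, and the gene was low in every library. ATOH8 was 3.89-fold higher (log2 fold change 1.96 with SE 0.33, 95% interval 1.25 to 2.67, edgeR adjusted p = 0.000853) and kept its call with any 1 library left out, at changes from 1.76 to 2.32. PMEPA1, a membrane protein gene induced by TGF-beta that dampens it, stood at 0.613, 1.05 and 0.581 CPM against 0.689, 0.707 and 0.745 CPM. At these levels its interval ran from -0.66 to 0.80 on the log2 scale, so a change of moderate size could not be seen.

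**Figure D3:**
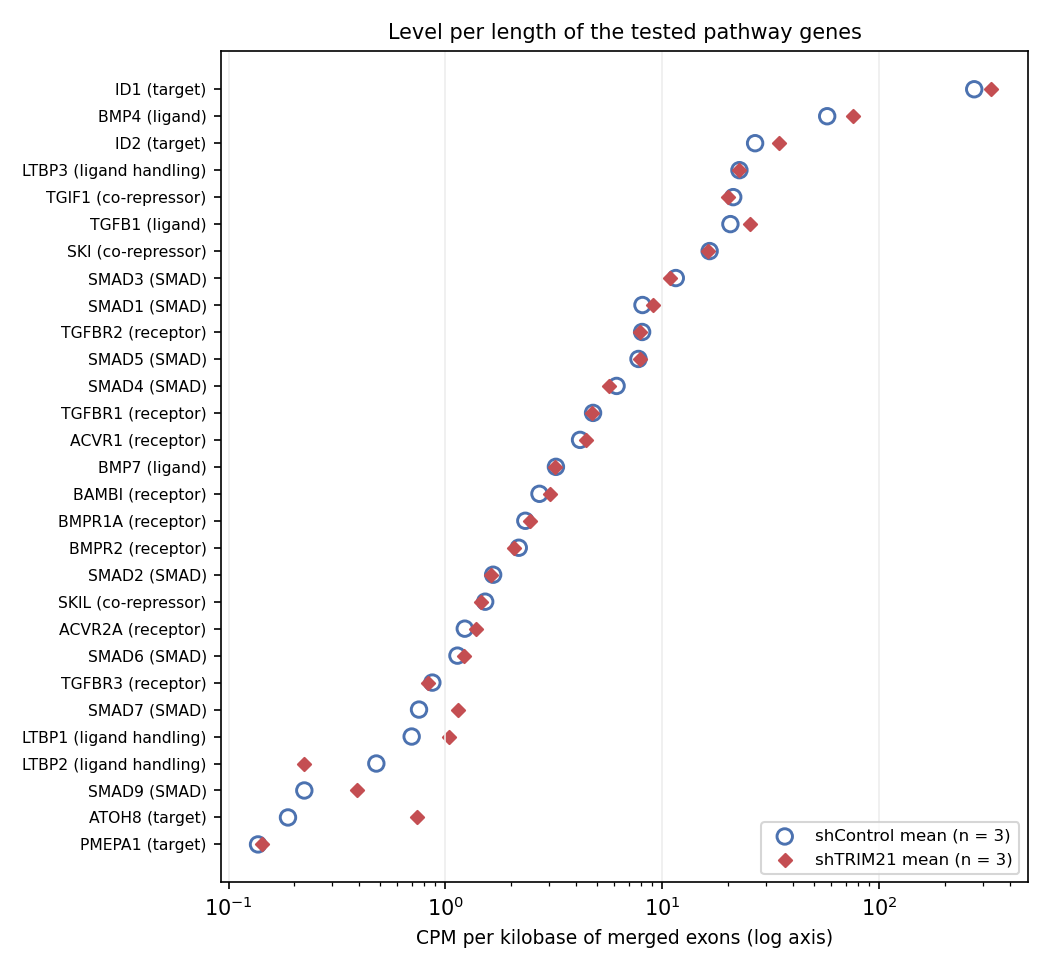
Mean level per length in CPM per kilobase of merged exons (x axis, log scale) of the 29 tested genes (y axis, ordered by the shControl level), with open blue circles for shControl and red diamonds for shTRIM21 (n = 3 each). ID1 stands highest at 274 in shControl, followed by BMP4 at 57.5 and ID2 at 26.8, and the separations of ATOH8, SMAD9 and LTBP2 lie at the low end.

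Per length, the order of the pathway genes in shControl was led by ID1, BMP4 and ID2, at 274, 57.5 and 26.8 CPM per kilobase. LTBP3, TGIF1, TGFB1, SKI and SMAD3 followed, at 22.7, 21.2, 20.6, 16.5 and 11.5 CPM per kilobase. Receptors lay between 0.870 (TGFBR3) and 8.07 (TGFBR2) CPM per kilobase. The genes called with a change of more than 1.5-fold, ATOH8, LTBP2, SMAD9 and SMAD7, were all at or under 0.756 CPM per kilobase in shControl. BMP4, TGFB1, ID1 and ID2 changed by 1.19-fold to 1.31-fold at high levels. The SEs were 0.16 to 0.33 for the low genes and 0.056 to 0.072 for the high ones. A low gene can therefore be called only at a larger change, and no link between level and size of change is drawn. Lengths are of merged GENCODE exons, which can include exons that RKO cells do not use.

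A wider list held 89 other genes of the pathway and was also chosen with earlier results of these data known. It gave 6 higher and 14 lower of 69 tested, 8.70% and 20.3%, beside 9.77% and 11% of all tested genes. The median log2 fold change was -0.04. Genes for proteins that bind ligands or process them were called most often: of 14 tested, 2 rose and 7 fell. CRIM1, which encodes a transmembrane BMP-binding protein, stood at 26.5, 26.9 and 26.6 CPM in shTRIM21 and 48.4, 51.0 and 47.2 CPM in shControl (log2 fold change -0.87 with SE 0.063, edgeR adjusted p = 2.04e-07). THBS1, encoding thrombospondin-1, an activator of latent TGF-beta, stood at 8.61, 8.88 and 9.30 CPM against 19.6, 22.0 and 22.7 CPM (log2 fold change -1.26 with SE 0.092, edgeR adjusted p = 2.33e-07). Neither gene's groups came near each other. The remaining 5 that fell, named after their values were seen, were TWSG1 (-0.40), FSTL3 (-0.39), FSTL1 (-0.32), the ligand-cleaving protease gene FURIN (-0.31) and NBL1 (-0.18), of which TWSG1 and NBL1 encode BMP-binding proteins and FSTL3 an activin-binding one. The genes that rose were LTBP4 (0.53, SE 0.082, edgeR adjusted p = 0.000374), a further member of the latent TGF-beta binding family, and LRRC32 (1.12, SE 0.37, edgeR adjusted p = 0.0437), whose product holds latent TGF-beta at the cell surface. The LRRC32 call was lost with any 1 of the 6 libraries left out (edgeR adjusted p from 0.0556 to 0.146), in DESeq2 (adjusted p = 0.112) and without the filter on low counts (edgeR adjusted p = 0.0733). NBL1 lost its call with any 1 shTRIM21 library or shControl replicate 2 left out (adjusted p from 0.0579 to 0.0948), and FSTL1 without shTRIM21 replicate 1 or 2 or shControl replicate 1 or 3 (adjusted p from 0.0504 to 0.0708). With library sizes alone 2 of the 14 fell, and over the whole wider list 3 in place of 14 fell. The wider list gave 9 lower without shTRIM21 replicate 2.

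Regulators of SMAD proteins gave 0 higher and 2 lower of 15, and these 13.3% lie near the 11% of all tested genes called lower. SMURF2 and NEDD4L, which encode ubiquitin ligases that target SMADs and receptors, changed by -0.27 (SE 0.059, edgeR adjusted p = 0.00457) and -0.23 (SE 0.069, edgeR adjusted p = 0.0295). The median of these 15 genes was -0.13, and 0.09 with library sizes alone, where 0 of the 15 were called by edgeR and 0 had an unadjusted p under 0.05. NEDD4L lost its call without shTRIM21 replicate 1 or 2 or shControl replicate 2 or 3 (edgeR adjusted p from 0.0729 to 0.133).

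Target and feedback genes were also set side by side by the branch with which they are mainly associated. Genes that both branches induce were placed on a single side as well, SMAD7 on the BMP side. The grouping was made after the values were seen and so is given without a test. On the BMP side 7 of 10 tested genes rose and 0 fell, with a median of 0.39, where 9.77% of all tested genes were called higher and 11% lower. These were the 5 genes ATOH8, SMAD9, SMAD7, ID1 and ID2 described above, and the homeobox genes MSX1 and MSX2. MSX1 stood at 112, 116 and 128 CPM in shTRIM21 and at 88.9, 80.4 and 79.8 CPM in shControl (log2 fold change 0.51 with SE 0.064, edgeR adjusted p = 5.34e-05). MSX2 stood at 22.6, 20.9 and 21.5 CPM against 15.2, 17.6 and 16.1 CPM (log2 fold change 0.41 with SE 0.083, edgeR adjusted p = 0.00289). Both were apart in every library. HEY1, the gene on this side with a negative value, was not called (-0.78, 95% interval -1.60 to 0.03, at a mean of 0.549 and 0.945 CPM).

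On the TGF-beta side 2 of 15 rose and 3 fell, 13.3% and 20% beside the same background, at a median log2 fold change of -0.06. With upper-quartile factors 4 were higher and 3 lower, and with library sizes alone 3 were higher and 2 lower. That median turned positive without shControl replicates 1 and 3 (0.03) and when scaled by library sizes alone (0.16). CCN2, which encodes a matricellular growth factor, stood at 1.79, 1.99 and 1.90 CPM in shTRIM21 and 7.42, 6.58 and 7.18 CPM in shControl (log2 fold change -1.90 with SE 0.15, edgeR adjusted p = 5.26e-07). The other genes that fell were THBS1 and the cell cycle inhibitor gene CDKN1A (-0.39, SE 0.055, edgeR adjusted p = 0.00018). THBS1 was also counted above among the genes for proteins that bind ligands or process them. TAGLN, of smooth muscle actin bundles, and the fibronectin gene FN1 rose by 0.45 and 0.45 (SE 0.085 and 0.12, edgeR adjusted p = 0.00166 and 0.0152). FN1 lost its call without shTRIM21 replicate 2 (0.44, adjusted p = 0.0562) or shControl replicate 3 (0.38, adjusted p = 0.0652), and CDKN1A lost its call with library sizes alone (-0.18, adjusted p = 0.508). The genes CCN2 and THBS1 are also known targets of other pathways, and SMAD7 and JUNB are induced on both sides. The BMP side gave 4 higher without shTRIM21 replicate 3. Without shControl replicates 1 and 3, with 1 control library left, the median of the BMP side was 0.33.

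**Figure D4:**
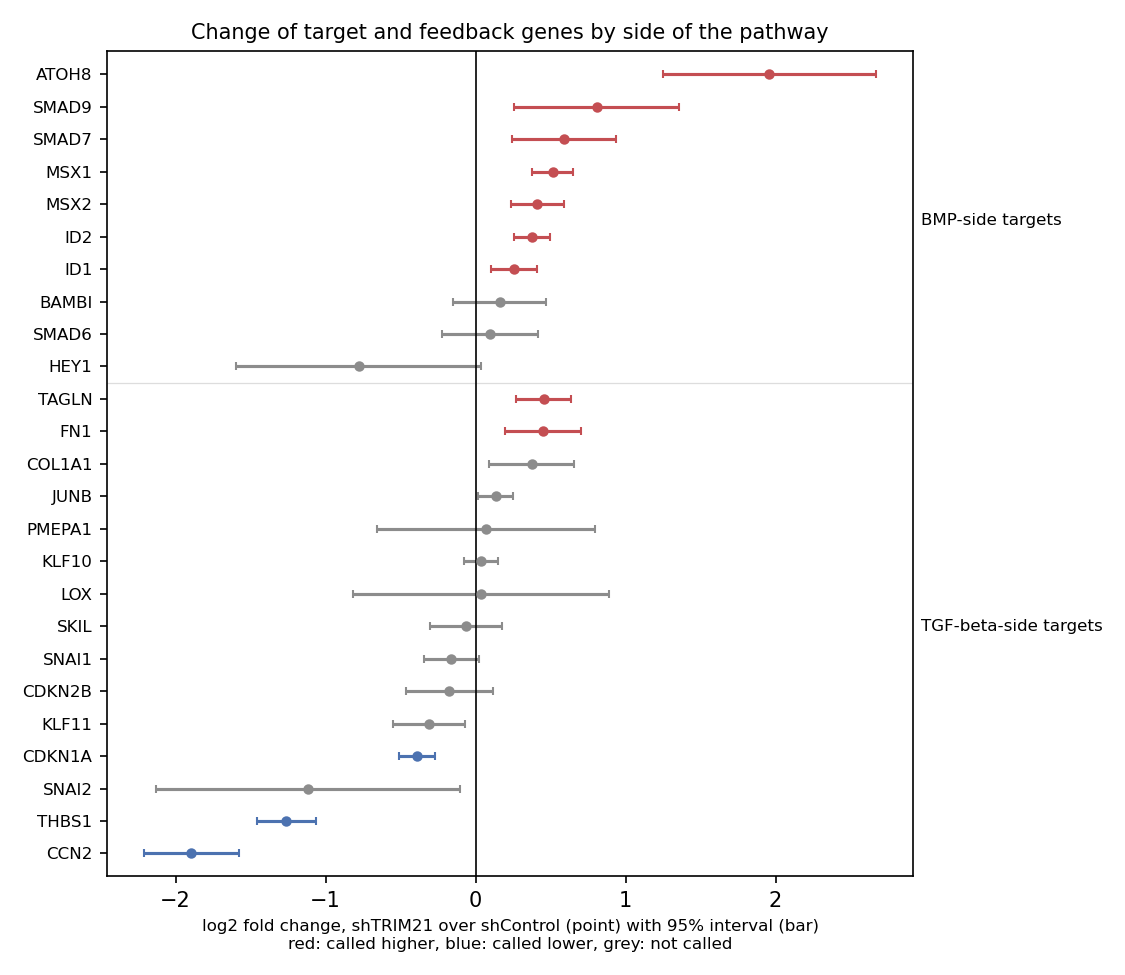
Log2 fold change of shTRIM21 over shControl (x axis; points edgeR estimates, bars 95% intervals) for target and feedback genes (y axis) set by the branch of the pathway with which they are mainly associated. On the BMP side 7 of 10 genes were called higher and 0 lower, and on the TGF-beta side 2 of 15 were called higher and 3 lower, where 9.77% of all tested genes were called higher and 11% lower. SMAD7, which both branches induce, is counted on the BMP side. The grouping was made after the values were seen and is shown without a test.

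On the RefSeq annotation 22 of the 35 genes overlap another gene, so that reads may be shared where strand was not used in counting. Among the 9 called genes TGFB1, SMAD7, SMAD9, ID1 and ID2 overlap 0 other genes. BMP4 overlaps an uncharacterised protein-coding locus, LTBP1 pseudogenes, LTBP2 uncharacterised non-coding loci, and ATOH8 a microRNA gene, MIR6071.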

How the data were processed

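The deposited values are whole-number read counts for each gene symbol, in a separate table for every library, and the authors did not normalize them. TopHat2, edgeR, limma and the build hg38 appear in the submitters' processing notes, with no role stated. Which program counted reads, on which annotation and whether by strand was not stated in the sources used here.

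Sample titles gave the groups and the replicate numbers. The counts were analysed with R 4.3.3 and edgeR 4.0.16: filterByExpr (minimum count 10, minimum total 15), TMM factors, the quasi-likelihood F test on all 6 libraries without other terms, and Benjamini-Hochberg adjustment over all tested genes, with calls at an adjusted p under 0.05. SEs were computed as log2 fold change over the root of F. CPM uses TMM-scaled library sizes, and SDs are over 3 libraries. Positions and promoters are from RefSeq (GRCh38.p14) and exon lengths from GENCODE release 29 (GRCh38). The precision of low genes is set by the counts given beside them.

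The genes, the wider list and the grouping by role were chosen with earlier results of these data known. All 35 genes are named, with up to 2 called genes of the wider list per role and direction that had the smallest p-values; MSX2, FN1, HEY1, TGFB2, TGFB3 and 5 ligand-handling genes that fell were named after their values were seen. Alternatives used DESeq2 1.42.0, limma-voom 3.58.1, other scalings and filters, and libraries left out. Some items are not reported here and were left out of the lists. The test was checked on simulated data. Replicates of a group differed by more than sampling noise (chi-square per gene from 4.54 to 10.13, where 1 is noise alone), so none was counted as a repeat of another.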

Additional observations from a re-analysis of the deposited data

How the results depend on the processing

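The 9 called pathway genes kept their direction under all 17 alternatives, of which the filter at 1 CPM keeps ATOH8 only through its higher group and is no check of that gene. Of 492 values of single pathway genes over the alternatives, 441 kept their direction and side of the threshold, 15 lost a call and 36 changed sign, all 36 in genes that were not called. Settings that changed the counts are given first. Genes called over the whole table numbered 3146, 1958 without shControl replicates 1 and 3 (an alternative chosen after seeing the data), 1969 with library sizes alone and 1844 to 2592 with 1 library left out. Pathway genes called higher numbered 8, and 5 to 7 with 1 library left out, 5 being the value without shTRIM21 replicate 3. Wider pathway genes called lower numbered 14, 3 with library sizes alone, and 9 to 13 with 1 library left out, 9 being the value without shTRIM21 replicate 2. TRIM21 lost its call with library sizes alone (-0.34, edgeR adjusted p = 0.197, in a range of 0.000399 to 0.197 over its alternatives). Signs of genes that were not called changed as follows. With library sizes alone the log2 fold changes were 0.19 for BMP7, 0.20 for LTBP3, 0.20 for TGFBR1, 0.17 for TGFBR2, 0.14 for TGFBR3, 0.14 for BMPR2, 0.19 for SMAD2, 0.13 for SMAD3, 0.090 for SMAD4, 0.19 for SKI, 0.16 for SKIL and 0.13 for TGIF1, where the median of all genes was 0.22. With upper-quartile factors they were 0.020 for BMP7, 0.028 for LTBP3, 0.023 for TGFBR1, 0.0041 for TGFBR2, 0.0096 for SMAD2 and 0.010 for SKI. Without shControl replicates 1 and 3 they were 0.073 for TGFBR1, -0.11 for BMPR1A, 0.018 for SMAD2, -0.11 for SMAD6, 0.075 for SKI and 0.030 for SKIL. With 1 library left out the ranges were -0.053 to 0.0081 for BMP7, -0.081 to 0.052 for LTBP3, -0.080 to 0.064 for TGFBR1, -0.092 to 0.0069 for TGFBR2, -0.20 to 0.078 for TGFBR3, -0.024 to 0.16 for BMPR1A, -0.036 to 0.060 for SMAD5, -0.086 to 0.0088 for SKI, -0.15 to 0.027 for SKIL and -0.26 to 0.22 for PMEPA1. The cause was not tested. The groups share replicate numbers, but deviations of same-numbered libraries correlated at -0.013, 0.0057 and -0.080, so the numbers were not taken to pair libraries. With the replicate block 2905 genes were called in all, with 8 pathway genes higher and 1 lower, and LRRC32 and BMP8A of the wider list lost their calls (adjusted p = 0.0633 and 0.0626).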

Other observations

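Of 10 other ligand genes tested 0 rose and 2 fell, where 9.77% of all tested genes were called higher and 11% lower. GDF15, a stress-induced distant family member, changed by -0.39 (SE 0.067, edgeR adjusted p = 0.000855) from the high level of 281 ± 28.5 CPM in shControl to 214 ± 8.65 CPM in shTRIM21 (SD, n = 3 each). This call was lost with library sizes alone (-0.17, edgeR adjusted p = 0.514). With shControl replicates 1 and 3 left out, and 1 control library kept, the GDF15 change was -0.22. BMP8A changed by -0.33 (SE 0.11, edgeR adjusted p = 0.0492), and that call was lost with any 1 library except shControl replicate 2 left out (adjusted p from 0.0523 to 0.205). BMP8A was not called by DESeq2 (adjusted p = 0.0619) or limma-voom (adjusted p = 0.0609), with upper-quartile factors (adjusted p = 0.0835), with library sizes alone (adjusted p = 0.678) or with the filter at 1 CPM (adjusted p = 0.0516). The other TGF-beta isoform genes were low and not called: TGFB2 was at 0.944 ± 0.328 and 1.39 ± 0.282 CPM and TGFB3 at 1.18 ± 0.136 and 0.671 ± 0.516 CPM in shTRIM21 and shControl (SD, n = 3 each). TGFB3 was called higher with shControl replicate 1 left out (1.61, edgeR adjusted p = 0.0199) and with library sizes alone (1.05, adjusted p = 0.0409), beside 0.80 (adjusted p = 0.204) over all 6 libraries. With shControl replicates 1 and 3 left out, and 1 control library kept, the TGFB3 change was 2.25. Of 8 other receptor genes 1 fell, the activin type II receptor gene ACVR2B, by -0.24 (SE 0.074, edgeR adjusted p = 0.0334), a call lost without shTRIM21 replicate 1 or 2 or shControl replicate 2 or 3 (adjusted p from 0.0829 to 0.126). Of 6 other co-repressor genes 0 were called by edgeR, DESeq2 or limma-voom, and 0 had an unadjusted p under 0.05 by edgeR or limma-voom, with 1 by DESeq2.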
